A study of Homo sapiens with 12 samples.

Results

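The genes described here supply MHC class I molecules with peptide. B2M encodes the light chain of the class I molecule. TAP1, TAP2 and TAPBP encode the peptide transporter and its docking partner tapasin. PSMB8 and PSMB9 encode catalytic subunits of the immunoproteasome, ERAP1 and ERAP2 encode peptide-trimming enzymes of the endoplasmic reticulum, and NLRC5 encodes a transcriptional activator of class I genes. HLA-E, a class I heavy chain gene, was also on the list. A gene was followed through the probe sets annotated to its symbol alone, and where there were several, through the one with the highest mean over the 12 arrays. This gave 9 of the 10 listed genes, out of 18417 genes measured in the same way. HLA-E had no probe set of this kind and was not analysed here.

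Nucleated cells cut cytosolic proteins with the proteasome, and the TAP1-TAP2 transporter moves the resulting peptides into the endoplasmic reticulum. There they are trimmed and loaded, with the help of tapasin, onto a heavy chain paired with beta-2 microglobulin, and the loaded complex is shown to CD8 T cells at the surface. The transporter, tapasin and immunoproteasome genes are known to respond to interferon gamma and to NF-kB, and loss of class I presentation is a known feature of many B-cell lymphomas.

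RNA was measured in U-H01, a line from Hodgkin lymphoma, and HBL-1, a line from diffuse large B-cell lymphoma of the activated B-cell type. Cells of all 4 groups had been transduced with doxycycline-inducible hairpins to RelB and cRel, both NF-kB subunits, with 2 sequences for each, and doxycycline was given to a portion of each transduced population. The groups were 4 arrays of U-H01 labelled induced, 4 of U-H01 uninduced, 2 of HBL-1 induced and 2 of HBL-1 uninduced. U-H01 comprised the populations B1 and B2 and HBL-1 the population C, each at 2 time points of unstated length. The labels do not say which hairpin a population carried, and no untransduced cells or RelA knock-down were analysed here. Each line stands for 1 tumour. The labels name no separate cultures behind arrays of 1 group, so a p-value here measures array-to-array spread, which may be technical only.

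The U-H01 arrays labelled induced stood apart from those of the uninduced state. Pearson correlations over all genes were 0.893 to 0.909 between these states, against at least 0.991 within every group. U-H01 labelled induced correlated as highly with the other line, at 0.903 to 0.914 with HBL-1 induced and 0.904 to 0.915 with HBL-1 uninduced. Between the U-H01 states 186 genes differed by over 16-fold, against 0 between the HBL-1 states. Such genes numbered 199 between the uninduced lines and 169 between U-H01 labelled induced and HBL-1 induced. The targeted genes did not mark this split. RELB lay at 7.14 to 7.39 on the log2 scale in the arrays labelled induced and 7.23 to 7.54 in the uninduced ones (difference -0.15, limma adjusted p = 0.209), and REL at 9.95 to 10.30 and 9.88 to 10.05 (difference 0.20, adjusted p = 0.0716). In HBL-1, REL had 9.13 and 9.37 in induced cells and 9.70 and 9.78 in uninduced cells (difference -0.49, adjusted p = 0.121), and RELB had 7.40 and 7.57 against 7.67 and 7.67 (difference -0.19, adjusted p = 0.744). Markers of cell identity moved with the split. The mean log2 level of 6 measured B-cell markers was 8.37 to 8.67 in U-H01 labelled induced, 6.09 to 6.28 in U-H01 uninduced, and 10.06 to 10.21 in HBL-1. The mean of 7 markers of Hodgkin Reed-Sternberg cells did not separate the U-H01 states, at 7.67 to 7.90 in labelled induced and 7.73 to 7.86 in uninduced, and was 7.10 to 7.22 in HBL-1. Its members moved apart, with 3 called higher and 3 lower in U-H01 labelled induced, where 22.4% of all genes were higher and 23.5% lower. CD274, the ligand of PD-1, fell by 5.79 to a low level of 3.96 to 4.27, the chemokine CCL22 fell by 1.75 and FUT4 fell by 0.47, while the adaptor TRAF1 rose by 2.70 and IRF4 by 0.75. TNFRSF8, which encodes CD30, a defining marker of Hodgkin cells, rose the most of the 7 and averaged 11.59 in U-H01 labelled induced, 6.89 in U-H01 uninduced and 6.63 in both HBL-1 states. In U-H01 uninduced it did not differ from HBL-1 past the threshold (log2 difference 0.26, adjusted p = 0.107). Means of 9 T-cell and NK-cell markers lay between 4.75 and 5.09 on all arrays and those of 7 myeloid markers between 4.32 and 4.68. Means of 9 stromal, endothelial and epithelial markers were 5.55 to 5.74 in U-H01 labelled induced, 6.16 to 6.34 in U-H01 uninduced and 6.01 to 6.10 in HBL-1. This shift between the U-H01 states lay mostly in 1 gene. The median log2 difference of the 9 was -0.005, and 6 did not pass. Of these 9, PECAM1, an adhesion molecule of endothelium and some leukocytes, fell by 5.60 in U-H01 labelled induced (adjusted p = 2.56e-13), KRT8 fell by 0.54 and KRT18 rose by 0.51. The part of these markers in the class I results was not tested. Results that set U-H01 labelled induced against another group rest on these arrays. The comparisons of HBL-1 states and of uninduced lines do not, and there the class I genes kept the same calls when those 4 arrays were left out of the fit. That omission cannot show which U-H01 state stands for the line. TNFRSF8 and the B-cell markers were lower in U-H01 uninduced than in labelled induced, and the identity of either state was not tested. The comparison of uninduced lines therefore carries the same limit.

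TAP1 and PSMB9 had the largest differences between the U-H01 states. They are neighbours that are read in opposite directions, with starts 488 bases apart, and their RefSeq promoter windows share 13 bases. Each window runs in the reading direction of its gene, with 250 bases before the start and 50 after it. The windows are shown because the NF-kB and interferon motifs searched for fell on the TAP1 side. Capitals mark every match, on either strand, to 4 motifs: an NF-kB motif, GGGNNNNNCC, an interferon response element, GAAANNGAAA, a STAT element, TTCNNNGAA, and the CCAAT box. The TAP1 window is chr6:32853655-32853954 on the minus strand and the PSMB9 window chr6:32853942-32854241 on the plus strand of GRCh38.p14.
TAP1: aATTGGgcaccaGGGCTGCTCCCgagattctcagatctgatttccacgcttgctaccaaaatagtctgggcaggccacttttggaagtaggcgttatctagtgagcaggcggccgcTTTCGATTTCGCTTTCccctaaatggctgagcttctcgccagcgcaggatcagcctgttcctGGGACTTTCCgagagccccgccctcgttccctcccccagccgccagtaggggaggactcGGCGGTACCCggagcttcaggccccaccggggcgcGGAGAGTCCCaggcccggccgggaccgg
PSMB9: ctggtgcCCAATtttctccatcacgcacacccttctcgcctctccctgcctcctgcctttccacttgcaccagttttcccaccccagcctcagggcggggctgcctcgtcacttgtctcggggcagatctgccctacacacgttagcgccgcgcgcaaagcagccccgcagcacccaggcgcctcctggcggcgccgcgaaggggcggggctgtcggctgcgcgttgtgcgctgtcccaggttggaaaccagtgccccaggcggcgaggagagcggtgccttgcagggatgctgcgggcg
The TAP1 window shown, 1 of 2 listed for this gene, held 5 NF-kB matches, among them GGGACTTTCC and 2 that overlap each other. It also held 2 overlapping interferon response element matches and 1 CCAAT box. The other TAP1 window held 2 NF-kB matches, 1 STAT element and no match to the other 2 motifs. The PSMB9 window held a CCAAT box and no match to the other 3 motifs. This CCAAT box and that of the TAP1 window are 1 site, within the 13 shared bases, read from either strand. Among 35116 RefSeq promoter windows of the same length, the NF-kB motif was found in 58.67%, the interferon response element in 3.574%, the STAT element in 7.657% and the CCAAT box in 34.61%. RefSeq windows were listed for 8 of the 10 genes, 12 windows in all. The interferon response element was found in 7 of the 12, in every one of these genes but PSMB9, and the NF-kB motif in 6 of the 12, with 2 overlapping NF-kB matches in B2M and 4 in TAPBP. A match describes letters and does not show a bound factor.

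TAP1, which encodes 1 arm of the transporter, fell by 4.32-fold in U-H01 labelled induced. Its log2 levels were 9.67, 9.60, 9.32 and 9.62 in U-H01 labelled induced, against 11.61, 11.79, 11.66 and 11.59 in U-H01 uninduced. It had 8.51 and 8.42 in HBL-1 induced, against 7.95 and 8.11 in HBL-1 uninduced. The U-H01 states did not overlap with each other or with HBL-1, and the arrays labelled induced lay between the uninduced ones and HBL-1. The HBL-1 states were separate on 2 arrays each, without passing the threshold (limma adjusted p = 0.192). How many of all genes have groups that do not overlap was not counted, here or for the genes below. The difference in U-H01 was -2.11 ± 0.09 (log2, SE; adjusted p = 7.8e-10), and only 4.01% of all genes differed by as much. Between uninduced cells TAP1 was 12.4-fold higher in U-H01 than in HBL-1 (log2 difference 3.63 ± 0.11, adjusted p = 5.39e-11), and between U-H01 labelled induced and HBL-1 induced it was 2.12-fold higher (1.09 ± 0.11, adjusted p = 4.05e-06).

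TAP2, the other arm of the transporter, moved the same way by less. It had 8.80, 8.56, 8.82 and 8.83 in U-H01 labelled induced, against 9.20, 9.30, 9.50 and 9.45 in U-H01 uninduced. HBL-1 gave 8.06 and 7.79 in induced cells, against 7.84 and 7.91 in uninduced cells. The 2 U-H01 states did not overlap, the HBL-1 states did, and every HBL-1 array lay below every U-H01 array. TAP2 fell by 0.61 ± 0.09 in U-H01 labelled induced (log2, SE; adjusted p = 7.46e-05) and was 2.81-fold higher in uninduced U-H01 than in uninduced HBL-1.

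TAPBP encodes tapasin, which holds the empty class I molecule beside the transporter. Its levels were 11.22, 11.23, 10.93 and 11.24 in U-H01 labelled induced, against 12.15, 12.06, 11.86 and 11.80 in U-H01 uninduced. They were 9.72 and 9.73 in HBL-1 induced, against 9.91 and 9.95 in HBL-1 uninduced. The U-H01 states did not overlap with each other or with HBL-1. The HBL-1 states were separate on 2 arrays each and did not differ past the threshold (limma adjusted p = 0.684). TAPBP fell by 0.81 ± 0.09 (log2, SE; adjusted p = 4.96e-06) in U-H01 labelled induced, and uninduced U-H01 exceeded uninduced HBL-1 by 4.11-fold.

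The immunoproteasome genes were lower in U-H01 labelled induced, PSMB9 more so than PSMB8. PSMB9, which encodes the subunit beta-1i, had 9.90, 9.78, 9.96 and 9.91 in U-H01 labelled induced, against 11.41, 11.36, 11.52 and 11.37 in U-H01 uninduced. PSMB8, which encodes beta-5i, had 9.90, 9.72, 10.02 and 10.00 in U-H01 labelled induced, against 10.34, 10.42, 10.77 and 10.61 in U-H01 uninduced. Neither gene overlapped between the U-H01 states. PSMB9 fell by 1.53 ± 0.08 (log2, SE; adjusted p = 3.62e-09), a 2.88-fold difference, and PSMB8 by 0.62 ± 0.08 (adjusted p = 2.57e-05). In HBL-1, PSMB9 had 9.11 and 9.01 in induced cells against 9.06 and 9.20 in uninduced cells, and PSMB8 had 8.41 and 8.57 against 8.62 and 8.66. Both were higher in uninduced U-H01 than in uninduced HBL-1, PSMB9 by 4.87-fold and PSMB8 by 3.72-fold.

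B2M, the light chain shared by all class I molecules, had the smallest difference of the genes that fell in U-H01 labelled induced. It had 11.27, 11.23, 11.00 and 11.31 in U-H01 labelled induced, against 11.78, 11.64, 11.69 and 11.56 in U-H01 uninduced. HBL-1 gave 10.60 and 10.70 in induced cells, against 10.48 and 10.59 in uninduced cells. The U-H01 states did not overlap with each other or with HBL-1. The HBL-1 states were separate only by a thin margin, on 2 arrays each, and did not differ past the threshold (log2 difference 0.11, limma adjusted p = 0.883). B2M fell by 0.46 ± 0.09 in U-H01 labelled induced (log2, SE; adjusted p = 0.000683), a difference that 30.0% of all genes matched or exceeded in size, and was 2.19-fold higher in uninduced U-H01 than in uninduced HBL-1.

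The trimming enzymes moved opposite to the transporter in U-H01. ERAP2 had 10.36, 10.27, 10.03 and 10.18 in U-H01 labelled induced, against 9.53, 9.39, 9.63 and 9.59 in U-H01 uninduced. ERAP1 had 9.92, 9.64, 9.73 and 10.04 in U-H01 labelled induced, against 9.56, 9.49, 9.45 and 9.38 in U-H01 uninduced. Both were higher on every array labelled induced than on any uninduced one. ERAP2 rose by 0.67 ± 0.09 (log2, SE; adjusted p = 5.79e-05) and ERAP1 by 0.36 ± 0.10 (adjusted p = 0.00858).

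ERAP2 separated the lines more than any other of these genes in the induced states. Its levels in HBL-1 were 6.13 and 6.17 in induced cells and 5.97 and 6.12 in uninduced cells, close to the median gene of these arrays, which lay between 6.10 and 6.33. Against this low level it was 16.7-fold higher in U-H01 labelled induced than in HBL-1 induced and 11.3-fold higher in uninduced U-H01 than in uninduced HBL-1. ERAP1, which trims a different range of peptides, had 8.72 and 8.75 in HBL-1 induced and 8.57 and 8.58 in HBL-1 uninduced, and was 2.13-fold higher in U-H01 labelled induced than in HBL-1 induced.

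NLRC5 was the only one of the 9 genes that was lower in U-H01 than in HBL-1. It had 7.06, 7.06, 7.09 and 7.13 in U-H01 labelled induced, against 7.12, 7.28, 7.19 and 7.20 in U-H01 uninduced. In HBL-1 it had 7.68 and 7.86 in induced cells, against 7.58 and 7.49 in uninduced cells. The U-H01 states overlapped and did not differ past the threshold (difference -0.11, 95% confidence interval -0.28 to 0.06, adjusted p = 0.291), and NLRC5 lay below HBL-1 in both states, by 0.34 between uninduced cells (log2 difference -0.34, adjusted p = 0.0126) and by 0.68 between induced cells (log2 difference -0.68, adjusted p = 8.16e-05). Without the first uninduced HBL-1 array the uninduced difference no longer passed (-0.20, adjusted p = 0.373).

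**Figure D1:**
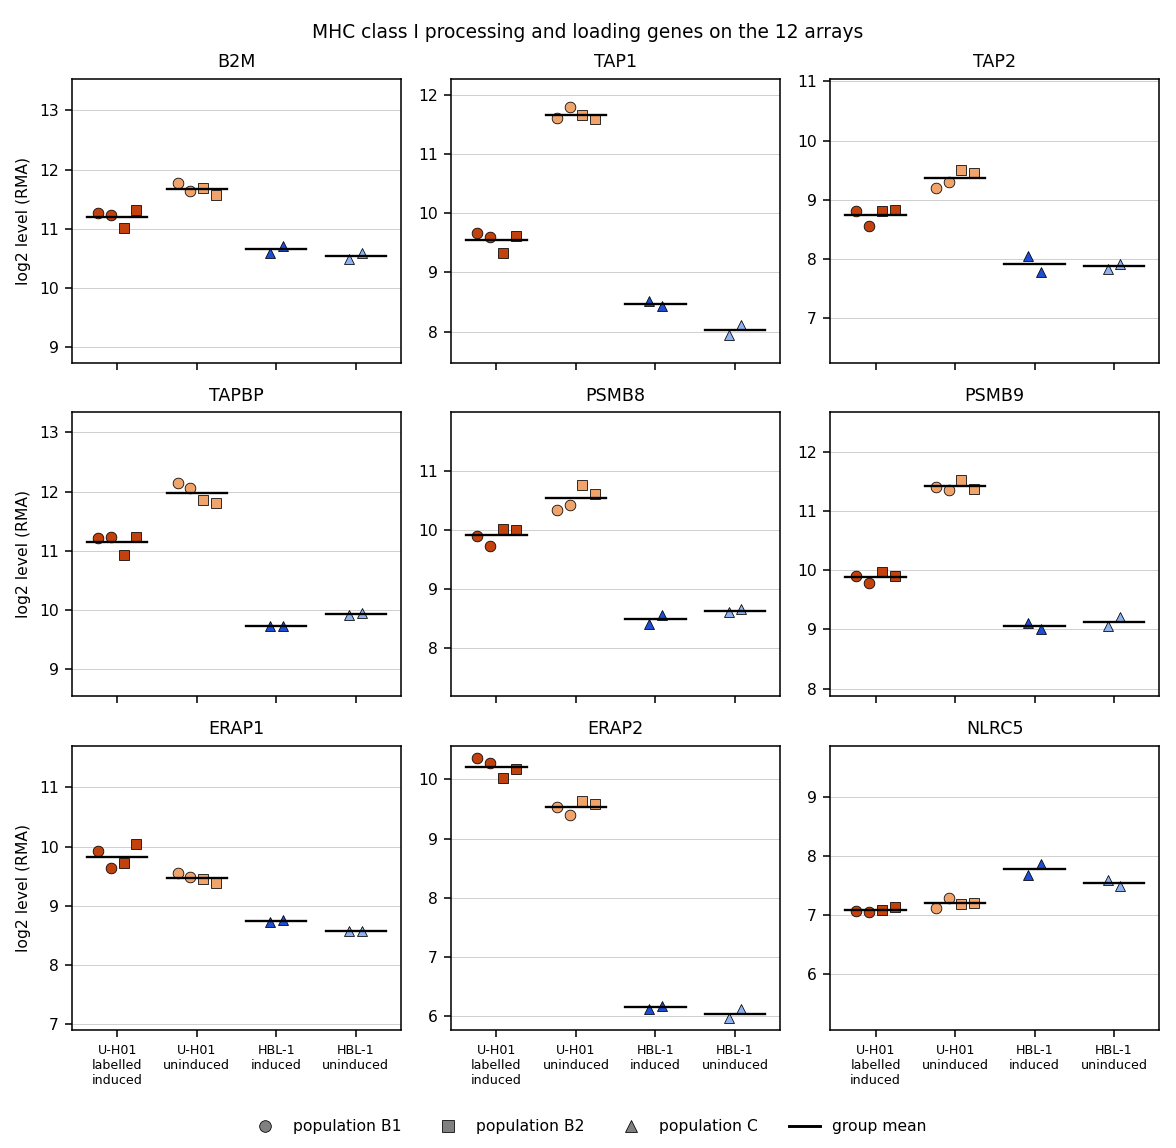
Log2 level of each of the 9 genes on the 12 arrays, by group, with 1 point per array, the marker giving the population and the line the group mean; every panel spans the same log2 range. TAP1 and PSMB9 in U-H01 labelled induced sit between U-H01 uninduced and HBL-1, ERAP2 is high in both U-H01 states, and NLRC5 is the one gene higher in HBL-1.

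A common model in limma over the 12 arrays, with terms for population, time point and induction, gave the tests, with Benjamini-Hochberg adjustment over all 18417 genes. A gene was called at an adjusted p under 0.05. In U-H01 labelled induced against uninduced, 6 of the 9 genes were called lower, where 23.5% of all genes were, and 2 were called higher, where 22.4% of all genes were. The median log2 difference of the 9 was -0.61, against 0.03 over all genes. Each of the 8 called genes changed the same way in all 4 pairs of arrays from the same population and time point. This follows from their U-H01 states not overlapping and adds no further support. TAP1 differed by -1.94 to -2.34 over the pairs. The mean of each of the 9 genes over the 12 arrays lay above the median level of all genes, though for ERAP2 it did so through U-H01, since its HBL-1 levels lay near that median. TAP1, PSMB8 and PSMB9 each had 3 probe sets of identical values. The 2 further probe sets of TAP2 differed by -0.65 and -0.62 between the U-H01 states and those of TAPBP by -0.91 and -0.82.

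In uninduced U-H01 against uninduced HBL-1, 8 of the 9 genes were called higher, where 20.8% of all genes were, and NLRC5 was called lower, where 22.1% of all genes were. In U-H01 labelled induced against HBL-1 induced, the same 8 were called higher and NLRC5 lower, where 18.0% of all genes were higher and 20.6% lower. The median log2 difference of the 9 genes was 1.90 between uninduced cells and 1.09 between induced cells, against -0.03 and 0.00 over all genes. The uninduced arrays of U-H01 enter both the comparison with labelled induced U-H01 and that with HBL-1, so these results are not independent of each other. The order of the groups was the same for TAP1, TAP2, TAPBP, PSMB8, PSMB9 and B2M, with U-H01 uninduced highest, U-H01 labelled induced next and the HBL-1 states lowest. ERAP1 and ERAP2 had U-H01 labelled induced highest, U-H01 uninduced next and HBL-1 lowest.

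In HBL-1, induced against uninduced, 0 of the 9 genes were called by limma, where 0.608% of all genes were. At an unadjusted p under 0.05 there were 1807 of all genes, and TAP1 was the only one of the 9 among them. TAP1 had a difference of 0.44 ± 0.13 (log2, SE; adjusted p = 0.192), with a 95% confidence interval of 0.16 to 0.71, and it was higher in both pairs of arrays. It was called only when HBL-1 was fitted alone (adjusted p = 0.0161). The other 8 had differences between -0.20, for TAPBP, and 0.24, for NLRC5, and with 2 arrays a group the standard errors of 0.11 to 0.14 leave changes of this size undetectable.

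**Figure D2:**
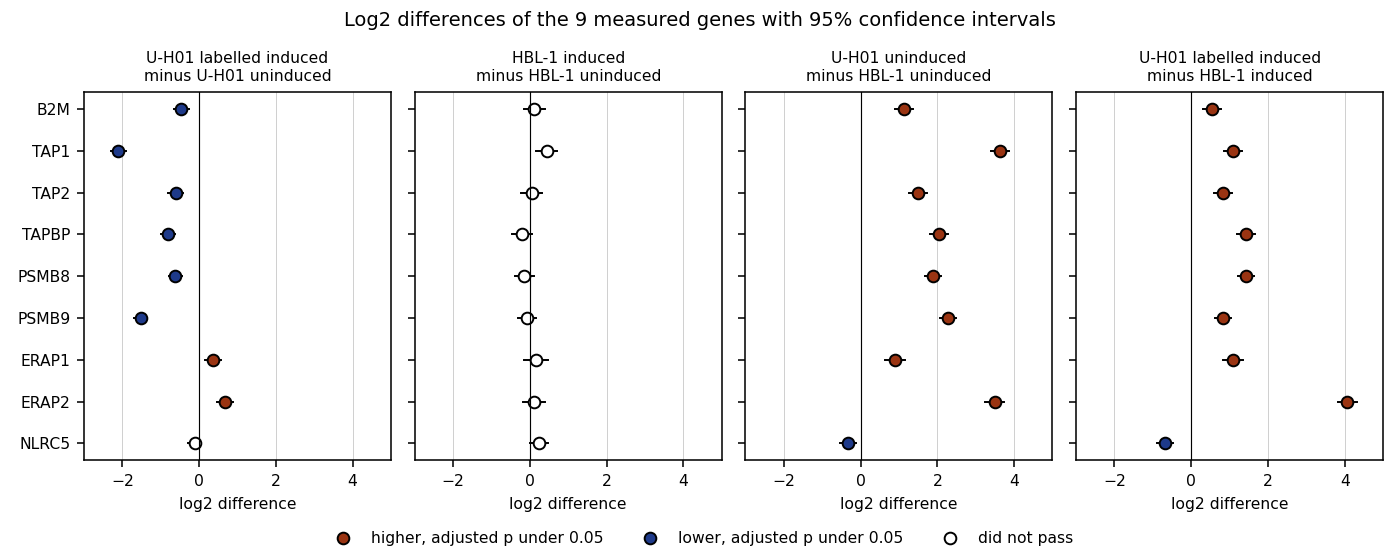
Log2 difference of each of the 9 genes in 4 comparisons, with 95% confidence intervals as bars and filled points where the adjusted p is under 0.05. The transporter, tapasin, immunoproteasome and light-chain genes are lower and the ERAP genes higher in U-H01 labelled induced, no gene passes in HBL-1, and 8 of 9 are higher in U-H01 than in HBL-1 in either state.

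The difference between arrays labelled induced and uninduced was itself compared between the lines, and it was not the same for 7 of the 9 genes. Whether its U-H01 part is a response to doxycycline was not tested. The U-H01 arrays labelled induced stood apart from the uninduced ones over all genes, and REL and RELB did not differ past the threshold there. The difference was lower in U-H01 for 6, where 17.0% of all genes were lower, and higher for ERAP2, where 15.5% were higher. TAP1 had the largest such difference, -2.55 ± 0.15 (log2, SE; adjusted p = 7.63e-08), and PSMB9 the next, -1.46 ± 0.13 (adjusted p = 2.8e-06). The other 5 lay between 0.47 and 0.66 in size, and their calls depended on the HBL-1 arrays. With 1 HBL-1 array of the first time point left out, whichever it was, TAP1 and PSMB9 alone were called, and with 1 of the second left out, 4 of the 9 were.

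No difference between the hairpin populations or the time points passed the threshold for these genes. None of the 9 was called between B2 and B1 in uninduced U-H01, where 3.44% of all genes were, or in U-H01 labelled induced, where 0.109% were. At an unadjusted p under 0.05 these comparisons held 3270 and 1558 genes, and in uninduced cells TAPBP, at a log2 difference of -0.28, and PSMB8, at 0.30, were among them. The 2 arrays of B2 did not overlap with the 2 of B1 for PSMB8, TAP2 and ERAP2 in either state. The same held for TAPBP and ERAP1 in uninduced U-H01 and for PSMB9 and NLRC5 in U-H01 labelled induced. ERAP2 changed direction, at 0.15 in uninduced and -0.21 in labelled induced cells. How many of all genes separate in this way on 2 arrays a side was not counted, so these separations are not read as population differences. With 2 arrays a side, the simulation recovered 10 of 67 genes changed by 0.5 log2 in uninduced cells and 14 of 67 in labelled induced, so population differences of this size were mostly not detectable. Between the time points 0 of the 9 genes were called in U-H01 or in HBL-1, and 0.00% of all genes were in either line, with 1440 and 787 genes at an unadjusted p under 0.05.

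The genes that work beside the 9 did not move with them as a body. Their counts in U-H01 labelled induced stand against 22.4% of all genes called higher and 23.5% called lower. The constitutive proteasome carries PSMB5, PSMB6 and PSMB7 in the places that PSMB8, PSMB9 and PSMB10 take in the immunoproteasome. PSMB6 rose by 0.71 in U-H01 labelled induced (log2 difference, adjusted p = 4e-05), where PSMB9, which replaces it, fell by 1.53. PSMB10 rose by 0.66 (adjusted p = 0.000253), unlike the other 2 immunoproteasome subunits, and PSMB7 fell by 0.35 (adjusted p = 0.00326). PSMB5 fell by 0.28 (adjusted p = 0.0455). Of the other immunoproteasome parts and the PA28 activator, 3 of 4 rose, with PSME1 at 0.47 and PSME2 at 0.59, and the assembly factor POMP fell by 0.24. The falls of PSMB5, PSMB7 and POMP did not pass when arrays were centred on their medians, a scaling that moved the median of all genes to 0.18.

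**Figure D3:**
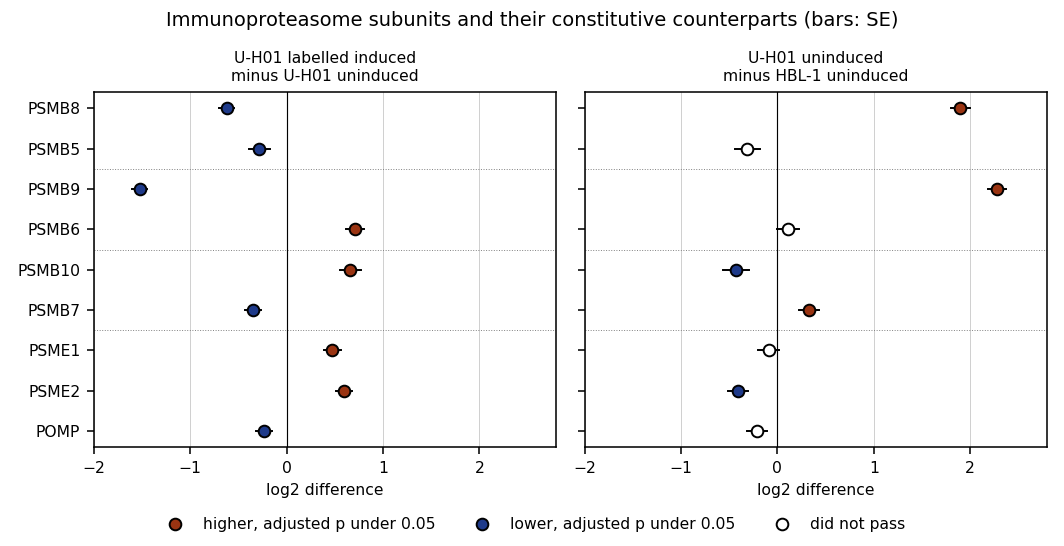
Log2 difference, with its SE as bar, of the immunoproteasome subunits, each above the constitutive subunit it replaces, and of PSME1, PSME2 and POMP, in U-H01 labelled induced minus uninduced (left) and uninduced U-H01 minus uninduced HBL-1 (right); filled points passed an adjusted p of 0.05. PSMB9 has the lowest value on the left, at -1.53, where PSMB8, at -0.62, is similar in size to the rises of PSMB6, PSMB10 and PSME2; on the right PSMB8 and PSMB9 lie at 1.90 and 2.28. PSMB10 lies on the opposite side of 0 from PSMB8 and PSMB9 in each panel.

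Of 14 measured genes of the regulatory 19S cap of the proteasome, 11 fell and 1 rose in U-H01 labelled induced, where 23.5% and 22.4% of all genes did, with a median log2 difference of -0.48 against 0.03 over all genes. PSMC4 fell by 0.91, PSMC2 by 0.89, PSMD6 by 0.80 and PSMC3 by 0.65. With arrays centred, 8 fell and 3 rose. Among 14 genes of the constitutive 20S core, 2 rose and 3 fell, no more than the shares of all genes, with PSMA5 down by 0.77 (log2 difference -0.77) and PSMA6 up by 0.45 beside the subunits above. Between uninduced U-H01 and uninduced HBL-1 the 19S genes showed 3 higher and 3 lower, near the shares of all genes, 20.8% and 22.1%. In HBL-1 induction called 0 of the 28 genes of both lists, where 0.608% of all genes were called.

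Of 6 measured loading partners of class I molecules in the endoplasmic reticulum, 3 rose and 1 fell in U-H01 labelled induced, where 22.4% of all genes rose and 23.5% fell, so that the single fall is near the share of all genes. CANX, a chaperone of new heavy chains, rose by 0.37, TAPBPL, a relative of tapasin, by 0.34, and SEC61B, part of the translocation channel, by 0.41, while CALR, a chaperone of the loading complex, fell by 0.34, which did not pass with arrays centred. Of 6 cytosolic and other peptidases, TPP2 rose by 0.55 and NPEPPS by 0.25, and THOP1, which degrades class I peptides, fell by 0.98 and NRDC by 0.45. None of these was called in HBL-1.

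Of 11 measured transcription factors of class I genes, 5 rose and 3 fell in U-H01 labelled induced, where 22.4% of all genes rose and 23.5% fell, so that the falls are near the share of all genes. The 4 with the smallest p were IRF8 up by 1.47, NFYB by 1.30, IRF2 by 1.25 and RFX5 by 0.85. Of 6 interferon gamma signalling genes, 2 rose and 3 fell. JAK2, a kinase of the receptor, fell by 3.27 and SOCS1, its inhibitor, by 2.57, whereas JAK1 rose by 2.04 and the receptor chain IFNGR1 by 1.07. JAK2 was the one gene of all these lists called in HBL-1, where it rose by 0.74 in induced cells (limma adjusted p = 0.0155). Of 4 guanylate binding protein genes, which interferon induces, GBP5 fell by 3.42 and GBP2 by 2.52, and GBP3 rose by 0.86 and GBP4 by 0.82. Several of these levels lay at or near the lower quartile of all probe sets on these arrays, 4.18 to 4.28, where a log2 difference may understate the change. GBP5 averaged 4.33 and GBP2 4.21 in U-H01 labelled induced, GBP3 4.40 in U-H01 uninduced, and GBP5 and GBP2 4.04 to 4.27 in HBL-1. In uninduced U-H01 against uninduced HBL-1, JAK2 was higher by 3.52 (log2 difference), SOCS1 by 2.65, GBP5 by 3.48 and GBP2 by 2.57, the last pair against those low HBL-1 levels.

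Of 13 measured stress ligands and other class I-like molecules, 5 fell and 0 rose in U-H01 labelled induced by limma, where 23.5% of all genes fell and 22.4% rose, with 2 rising under quantile normalization and 5 with arrays centred. ULBP3, MICB and ULBP1, ligands of the NKG2D receptor of NK cells, fell by 1.21, 1.12 and 0.74, and HFE, an iron regulator with a class I fold, by 0.51, to a low level of 4.38. Of 8 receptors that read class I molecules, KLRC2 was the only one called, with a log2 difference of -0.63. It lay at 3.17 to 3.39 in U-H01 labelled induced and 3.67 to 4.07 in U-H01 uninduced, below the lower quartile of all probe sets in both, so this difference is not read as a change in expression. KLRC1, CD160 and KLRD1, with differences of -0.18, 0.16 and -0.13, did not pass and lay below that quartile too.

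TAP2, PSMB8, TAP1 and PSMB9 follow each other on chromosome 6, in this order in the gene table of GRCh38.p14, and TAPBP lies 20 tested genes from TAP1. Their differences were set beside those of the genes around them, a description that was chosen after the values were seen, as was its width of 40 tested genes on each side. Of 53 neighbours above the median level, 34 were lower and 8 higher in U-H01 labelled induced, with a median log2 difference of -0.61, where 31.9% of the 9208 genes above that level were lower and 33.9% higher. Between uninduced U-H01 and uninduced HBL-1, 40 of the 53 were higher and 4 lower, with a median of 1.16, where 28.6% of such genes were higher and 32.8% lower. Quantile normalization left 34 lower in U-H01 labelled induced and 39 higher between uninduced lines, and centring left 30 and 39. The 53 neighbours had 1 called gene in HBL-1. These neighbours include genes of unrelated function, such as SLC39A7, a zinc transporter, at -1.58 in U-H01 labelled induced and 2.19 between uninduced lines, RING1, a Polycomb protein, at -1.52 and 1.35, and CLIC1, a chloride channel protein, at -0.62 and 1.34. The 8 that were higher included 7 MHC class II genes, such as HLA-DMB at 1.53.

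TAP1 fell by more than all 53 neighbours in U-H01 labelled induced, and it exceeded all 53 in its excess of uninduced U-H01 over uninduced HBL-1. This rank depends on the width of the window. Beyond its edge, LTA, at -4.67 and 6.27, and TNF, at -3.31 and 4.07, exceeded TAP1 in both comparisons. PSMB9 was exceeded by 4 of the 53 in its fall and by 1 in its excess. PSMB8 was exceeded by 25 in its fall and 4 in its excess, and TAP2 by 26 and 10, so that their falls lay at the middle of the region's. In an overlapping window of 50 neighbours, TAPBP was exceeded by 16 in its fall and 2 in its excess. The genes elsewhere had other surroundings, to be set against 33.9% of genes above the median level higher and 31.9% lower in U-H01 labelled induced. Around ERAP1 and ERAP2 on chromosome 5, 9 of 46 neighbours were higher and 22 lower in U-H01 labelled induced, the reverse of both genes, and around B2M on chromosome 15, 23 of 42 were higher and 9 lower, the reverse of B2M. Around NLRC5 on chromosome 16, 12 of 41 were higher and 13 lower, near those shares. With arrays centred on their medians, 13 were higher and 14 lower around ERAP1 and ERAP2, so that reversal depends on the scaling. Centring gave 26 higher and 6 lower around B2M, and 20 higher and 11 lower around NLRC5. The shares of all genes under that scaling were not counted. Between uninduced lines, 26 of the 42 neighbours of B2M were higher, as B2M was, and 3 lower, where 28.6% of such genes were higher and 32.8% lower. Whether gene copy number differed between these groups was not tested.

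**Figure D4:**
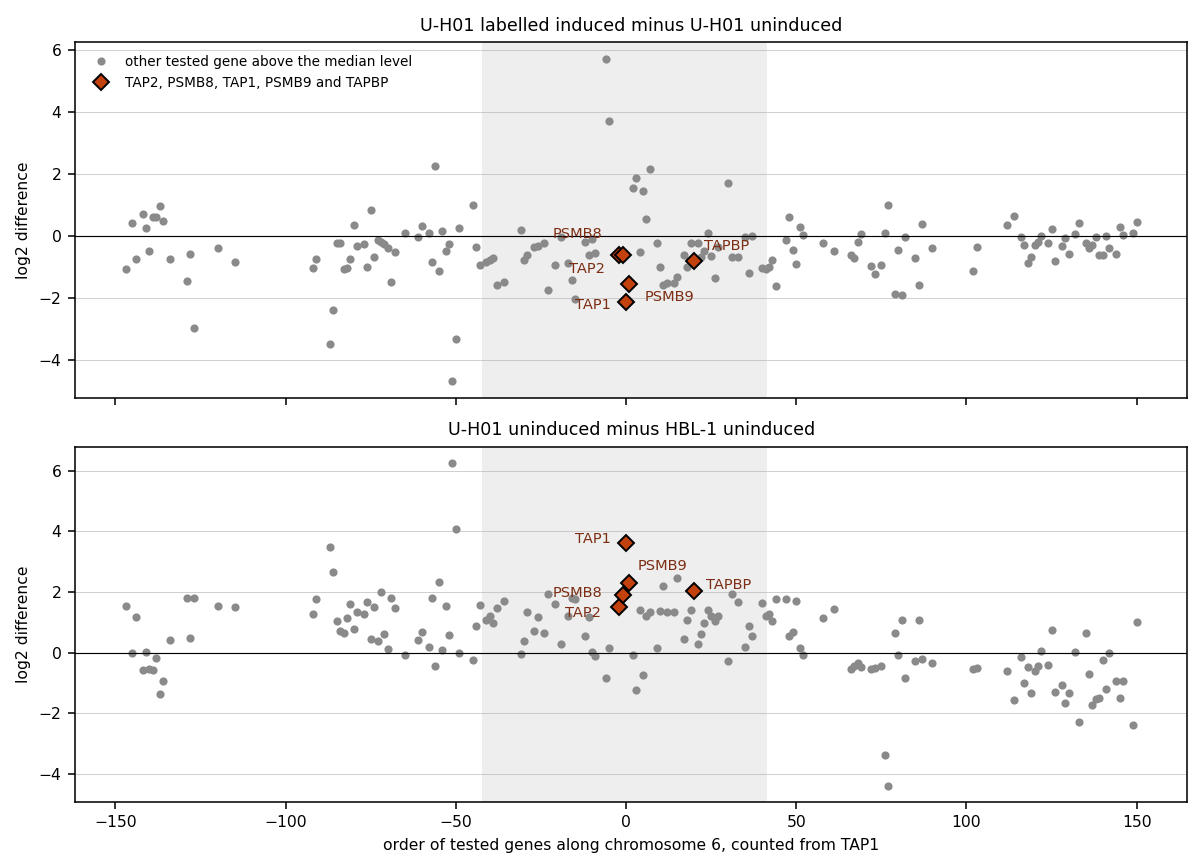
Log2 difference of tested genes above the median level along chromosome 6, by their order from TAP1, in U-H01 labelled induced minus uninduced (top) and uninduced U-H01 minus uninduced HBL-1 (bottom); diamonds are TAP2, PSMB8, TAP1, PSMB9 and TAPBP, and grey shading marks the window of 40 genes on each side. Most genes in the shaded window lie below 0 at the top and above 0 at the bottom, and TAP1, at -2.11 and 3.63, lies beyond the other falls and rises there. Outside the window, LTA and TNF lie beyond TAP1 in both panels.

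For each gene, the 3 others with the most similar pattern were taken by the root mean square difference of centred log2 levels over the 12 arrays, which fall into 3 clusters, so that likeness mostly reflects the means of U-H01 labelled induced, U-H01 uninduced and HBL-1. Nearest to TAP1 were NCK2 (0.22), PIP5K1B (0.23) and FBXO32 (0.24), against a spread of 1.42 of TAP1 itself on the same measure. Nearest to PSMB9 were SLC39A7 (0.08), FAM120C and ALDH1B1 (both 0.16). Nearest to TAP2 were ABCF1 (0.10), CLIC1 (0.11) and VARS2 (0.12), all on chromosome 6. TAPBP was closest to KLF6 (0.11), FIGNL1 and CAT (both 0.13), and PSMB8 to SNX10 (0.15), CHST7 (0.16) and UQCC2 (0.19). Of the 15 genes named for the 5 members on chromosome 6, 5 lie on that chromosome, and those named for TAP1 and TAPBP all lie elsewhere. The share of all tested genes on chromosome 6 was not counted, so this count is not read as a result.

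B2M was closest to UBE2R2 (0.08), CDS2 and PARP10 (both 0.10), ERAP1 to PPM1B, UBA6 and PCNX2 (each 0.11), ERAP2 to LCP2 (0.16), MBOAT1 (0.17) and FERMT3 (0.19), and NLRC5 to GNA13, FGFR1OP2 and TPCN2 (each 0.10). Among the 9 genes, TAP2 and B2M were nearest to each other at 0.23, and TAPBP and PSMB8 likewise at 0.23. PSMB9 was the nearest member to TAP1, at 0.49. ERAP2 and NLRC5 were the farthest apart, at 2.05.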

How the data were processed

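Biotin-labelled RNA of 12 single-colour arrays was analysed, each grouped by its title. Values were deposited on a log2 scale. The submitters' processing notes name RMA and Partek, and their versions and the genome build were not given in the sources used here. RMA brings arrays to like distributions, which can hide a shift of all genes. The table holds 33297 probe sets, of which the platform annotation gives 1 symbol to 19460, several to 1754 and none to 12083. The 19460 gave 18417 genes, 769 of them with several probe sets, represented by the highest mean. Entrez identifiers matched 19429 to GRCh38.p14, changing 0 symbols. The members and gene lists were chosen with earlier results of these data known.

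Tests used limma 3.58.1 (lmFit, eBayes) under R 4.3.3, two-sided, on all 12 arrays with 7 terms for population, time point within line and induction within line, leaving 5 residual degrees of freedom. B2 and B1 were compared with separate induction terms, 8 in all. On simulated data of 18417 genes, the U-H01 induction term recovered 40 of 67 genes changed by 0.5 log2, 63 of 67 by 1 and 66 of 66 by 2. That of HBL-1 recovered 12 of 67, 56 of 67 and 65 of 66. Few genes were changed in the simulation, where 8439 were called between the real U-H01 states. Its adjusted threshold was therefore stricter, and its recovery does not carry over to that comparison. Each pathway list is described by counts, with the 4 genes of smallest p named, or all where under 5 were measured. Array number limits precision. Pairs of arrays share a transduced population and a time point, which the labels' protocols give, and deviations from group means correlated at -0.03 to 0.14 within pairs. No 2 arrays were identical. Alternatives were 2 scalings, filters, variance options, a pair block, group means alone, each line alone, other probe sets, omission of each array and, added after the data were seen, omission of the 4 U-H01 arrays labelled induced. Promoters came from RefSeq, and figures from matplotlib 3.10.9 under Python 3.11.15.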

Additional observations from a re-analysis of the deposited data

Results flagged for a closer look

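TAP2 in U-H01 labelled induced had 1 array apart from the other 3, at 8.56 for B1 at the second time point, against 8.80 to 8.83. TAPBP in the same group had 1 array apart, at 10.93 for B2 at the first time point, against 11.22 to 11.24. These were 2 of 18 groups of 4 arrays examined, and chance gives about 1 in 20. Neither array changed a call of the 9 genes when it was left out.

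By an interaction test, the difference between arrays labelled induced and uninduced was not the same in U-H01 and HBL-1 for 7 genes. It is given as log2 difference in U-H01 minus that in HBL-1. The values were -2.55 for TAP1, -1.46 for PSMB9, -0.66 for TAP2, -0.61 for TAPBP, -0.58 for B2M, -0.47 for PSMB8 and 0.57 for ERAP2. For TAP1, the pairs of U-H01 arrays gave -1.94 to -2.34 and those of HBL-1 0.56 and 0.32. These differences rest on the U-H01 arrays labelled induced, which stood apart from the uninduced ones over all genes. Whether they reflect a response to doxycycline was not tested.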

How the results depend on the processing

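Of 986 recomputed differences of the 9 genes, 960 kept their direction and side of the threshold. All 8 calls in U-H01 labelled induced against uninduced and all 9 in U-H01 labelled induced against HBL-1 induced did so under every alternative run. With arrays centred on their medians, which moved the all-gene median in U-H01 labelled induced against uninduced to 0.18 from 0.03 as deposited, the uncalled NLRC5 difference there was 0.038, against -0.11. With 1 array left out at a time, uncalled differences in HBL-1 ranged from -0.13 to 0.22 for TAP2 and from -0.19 to 0.046 for PSMB9. The interaction called 2 to 7 of the 9 genes as arrays were left out, and its PSMB8 call was also lost with arrays centred (adjusted p = 0.102) and with group means only (adjusted p = 0.0551). Its NLRC5 difference passed when only genes above the median level were tested (adjusted p = 0.0465). Counts over all genes moved more. Testing all probe sets called 12781 in U-H01 labelled induced against uninduced, 58 in HBL-1, and 176 and 7 between B2 and B1 in uninduced and labelled induced U-H01. For B2 against B1 in U-H01 labelled induced the count was 9 above the median level and 31 with trend and robust options. With each line fitted alone, HBL-1 induction called 945 genes, 1 of them among the 9, B2 against B1 called 378 and 8, and the HBL-1 time points 103. Leaving out the 4 U-H01 arrays labelled induced gave 322 for HBL-1 induction. Leaving out single arrays gave 8 to 149 for HBL-1 induction, 59 to 800 for B2 against B1 in uninduced U-H01 and 8 to 58 in U-H01 labelled induced. The cause was not tested. The replicate block for pairs changed no call of the 9 genes and called 8201 genes in U-H01 labelled induced against uninduced and 90 in HBL-1. Group means only could give no population or time comparison, and lines fitted alone no comparison between lines. In the simulation a change of 0.5 log2 was mostly missed in HBL-1 (12 of 67), and the number of arrays limits what can be seen there.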
